A study of Mus musculus with 6 samples.

Results

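Intercalated cells of the mouse kidney collecting duct were selected in single-cell RNA sequencing data by the unique molecular identifiers (UMIs, which count each captured transcript once) of 4 genes. A cell was taken as a member when Atp6v1g3, Slc4a1, Slc26a4 and Foxi1 together gave at least 2 UMIs, with at most 2 UMIs of Aqp2, at most 1 of Slc12a1, at most 1 of Slc12a3, and none of Ptprc or Pecam1, which mark principal, thick ascending limb, distal convoluted tubule, blood and endothelial cells. The selection gave 137 members among 24212 kidney cells that had 200 to 3000 genes and at most 50% mitochondrial UMIs, out of 34034 kidney cells in the deposited matrix. Because the members were selected on these measurements, the levels of the 4 genes in them are given as a description only.

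Kidney tissue (C57BL/6 strain, male, 12 weeks old) was minced and digested with collagenase, and live cells were sorted before droplet capture. The control library was digested by a conventional 60 min protocol. The other 2 libraries came from a microfluidic platform, in which cells that were released were collected from the same tissue after 15 min and again after 60 min. Each of the 3 conditions was 1 library, so no difference between conditions has a replicate check, and every interval given below is a 95% interval that covers counting error only. Cells were not assigned to animals here.

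Intercalated cells are the acid-base cells of the collecting duct and connecting tubule. A vacuolar proton pump (V-ATPase), built from a cytosolic V1 sector and a membrane V0 sector, moves protons made from carbon dioxide by carbonic anhydrase. Type A cells secrete acid through a pump in the apical membrane and return bicarbonate to the blood through the anion exchanger encoded by Slc4a1. Type B cells secrete bicarbonate through the apical chloride/bicarbonate exchanger pendrin, encoded by Slc26a4. Foxi1 is the forkhead transcription factor needed for the identity of both types, and Tfcp2l1, of the CP2 family, acts with it in the collecting duct.

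The 250 bases upstream of the RefSeq start were searched in 13 of 19 marker genes (the 4 rule genes and 15 others) that had a window in the table (build GRCm38.p6). The windows shown are those of the gene that gave most rule UMIs, of the kidney-type B subunit of the pump and of the forkhead factor itself. The motifs were chosen because Foxi1 is a forkhead factor and Tfcp2l1 is of the CP2 family. Capitals mark a forkhead core (TGTTTAC or TGTTTAT, on either strand) in Atp6v1b1 and a CP2 motif in the other windows. The Atp6v1b1 window also holds 3 CP2 matches, which are not marked.
Atp6v1g3, chr1:138273488-138273737, + strand: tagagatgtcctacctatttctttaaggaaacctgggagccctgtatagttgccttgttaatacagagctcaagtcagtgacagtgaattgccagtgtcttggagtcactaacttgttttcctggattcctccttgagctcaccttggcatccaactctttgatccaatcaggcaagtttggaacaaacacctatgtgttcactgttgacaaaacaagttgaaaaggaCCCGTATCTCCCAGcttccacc
Atp6v1b1, chr6:83742767-83743016, + strand: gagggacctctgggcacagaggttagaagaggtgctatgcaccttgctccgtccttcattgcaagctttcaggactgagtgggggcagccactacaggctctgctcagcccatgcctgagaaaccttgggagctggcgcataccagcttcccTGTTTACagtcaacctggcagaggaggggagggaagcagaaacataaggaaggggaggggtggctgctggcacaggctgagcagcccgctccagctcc
Foxi1, chr11:34208090-34208339, - strand: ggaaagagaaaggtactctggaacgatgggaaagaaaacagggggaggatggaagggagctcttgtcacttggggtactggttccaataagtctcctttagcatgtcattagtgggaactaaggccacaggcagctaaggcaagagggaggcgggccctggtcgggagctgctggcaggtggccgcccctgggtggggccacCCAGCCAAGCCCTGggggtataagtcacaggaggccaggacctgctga

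The forkhead core was found in 1 of the 13 windows, that of Atp6v1b1, where it lies 98 bases before the start, and in 7.10% of all 32851 windows. The CP2 motif was found in 10 of the 13 windows and in 48.0% of all windows, and lies 22 bases before the start in Atp6v1g3 and 48 bases before it in Foxi1. A match of letters is a description of the window and not of a bound site.

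Barcodes that occur in more than 1 library bear on the results, and were counted first. Of the 31 members at 15 min, 11 (35.5%) carried a barcode that was also in another kidney library, against 4 of 53 (7.55%) at 60 min, 0 of 53 in control and 1.57% of kept cells that were not members. In 10 of those 11 the partner at 60 min held 38702 to 77837 UMIs and 98 to 592 UMIs of the rule genes, while the member held only 475 to 809 UMIs, 0.905% to 1.23% of its partner. These partners had 5198 to 7384 genes and so lay above the gene limit. Such cells are the shallow members at 15 min, and results are given with and without them. Of the 137 member barcodes 1 also occurs in the matrix of tumor cells from the series.

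In depth, the members had a median of 5114 UMIs and 1839 genes in control, 2799 UMIs and 1053 genes at 15 min, and 5577 UMIs and 1831 genes at 60 min. Summed over members this gave 286904, 128940 and 281648 UMIs. The median mitochondrial share was 7.50% in control, 25.7% at 15 min and 18.2% at 60 min, against 7.38%, 20.4% and 8.59% over all kept cells. Members at 15 min were thus the shallowest and held the highest mitochondrial share.

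The members' share of kept cells was highest in control. There were 53 among 5886 kept cells in control (0.900%, exact binomial interval 0.675 to 1.18), 31 among 8390 at 15 min (0.369%, 0.251 to 0.524) and 53 among 9936 at 60 min (0.533%, 0.400 to 0.697). The ratio to control was 0.410 at 15 min (log-scale interval 0.264 to 0.638) and 0.592 at 60 min (0.405 to 0.866), and the ratio of 15 min to 60 min was 0.693 (0.445 to 1.08). Without shared barcodes the shares were 0.910%, 0.242% and 0.503%. The ratio to control was then 0.266 (0.159 to 0.445) at 15 min and 0.553 (0.375 to 0.814) at 60 min, and that of 15 min to 60 min 0.482 (0.287 to 0.810). Both platform shares lay under control beyond counting error with and without shared barcodes, whereas the difference between the 2 intervals went beyond it only without them. These are shares within a library and not yields, and each platform library holds only part of what the platform released. For platform yields, the study added the 15 min share to 1.5 times the 60 min share, with weights estimated from flow cytometry. For the members this sum was 1.299 of control, without an interval, and the weights were not tested here.

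The share depended on what it was set against. Principal cells, the water- and sodium-reabsorbing neighbours of the intercalated cells, were taken as cells with at least 3 UMIs of Aqp2, Aqp3 and Fxyd4 and at most 1 UMI of the rule genes, and numbered 127 in control, 34 at 15 min and 165 at 60 min. Of these collecting duct cells together, members made up 29.4% (22.9 to 36.7) in control, 47.7% (35.1 to 60.5) at 15 min and 24.3% (18.8 to 30.6) at 60 min. The principal cells' own share ratio to control at 15 min was 0.188 (0.129 to 0.274), under that of the intercalated cells. With thick ascending limb and distal convoluted tubule cells added to the denominator, members were 17.8%, 19.3% and 8.70%, so at 15 min the ratio to control became 1.08. When cells were chosen by Atp6v1b1, Atp6v0d2, Tmem213 and Hepacam2 in place of the rule genes, 330 cells were taken, 125 of them members, and the 60 min ratio became 0.951. The 330 held 91.2% of the members, who were 37.9% of them.

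**Figure D1:**
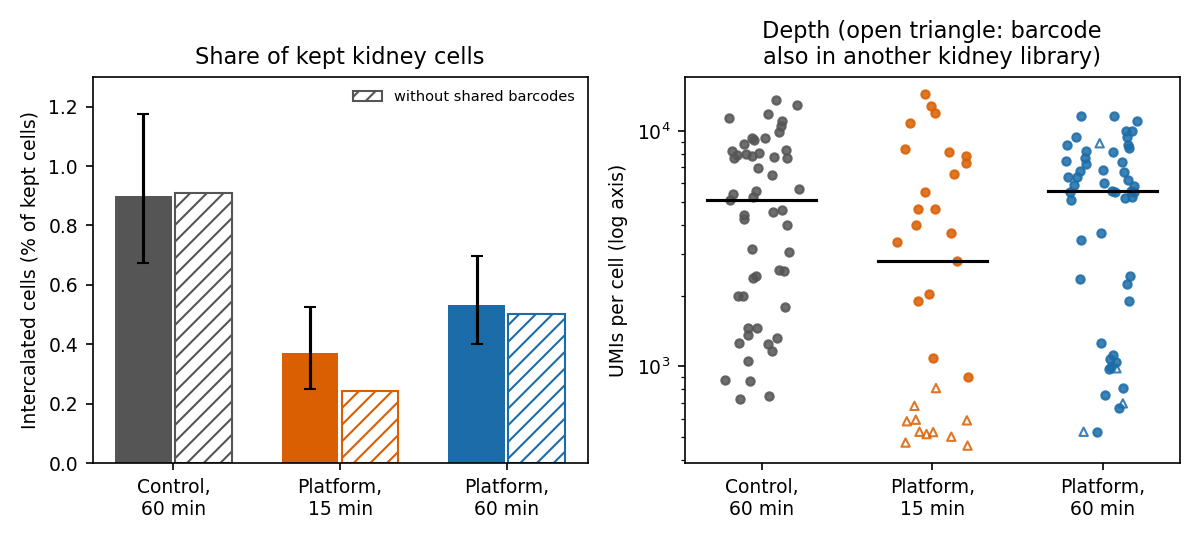
Left, the share of kept cells that were intercalated cells in each library (percent), with exact 95% intervals, and hatched the share without barcodes found in another kidney library. Right, total UMIs of each member (log axis) with the median as a line and members with shared barcodes as open triangles: at 15 min most of the cells under 1000 UMIs are triangles.

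The rule genes showed which signal made the members. Atp6v1g3, the kidney-enriched G3 subunit of the V1 stalk, gave 5756 UMIs, 89.5% of all rule UMIs, in 136 of 137 cells. Without it 49 cells would not have been selected, whereas Slc26a4 was needed for 1 cell and Slc4a1 and Foxi1 for none. Slc26a4 gave 312 UMIs in 58 cells, Foxi1 198 UMIs in 85 cells and Slc4a1 162 UMIs in 37 cells. A member held a median of 33 rule UMIs, from 2 to 199.

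Summed over the members of a library and scaled to a total of 1000000 UMIs (CPM), Atp6v1g3 stood at 8529 CPM (Poisson interval 8194 to 8874) in control, 9175 (8659 to 9713) at 15 min and 7548 (7231 to 7876) at 60 min. Slc26a4 stood at 432 CPM in control, 527 at 15 min and 426 at 60 min. Slc4a1 stood at 227 CPM (175 to 289) in control, 77.6 (37.2 to 143) at 15 min and 309 (247 to 381) at 60 min, so that only Slc4a1 among the rule genes was over 2-fold lower than control at 15 min. At the edge of the rule, the 6 members with exactly 2 rule UMIs held 314 CPM of Tmem213 and 17394 CPM of the proximal tubule transcript Kap, and the 159 otherwise eligible cells with 1 rule UMI held 22.6 and 30699 CPM.

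Genes that the rule did not use carried the intercalated label. At least 1 of Atp6v1b1, Atp6v0d2, Tmem213 and Hepacam2 was found in 131 of 137 members, and at least 2 UMIs of the 4 together in 125. Tmem213, a small membrane protein of intercalated cells, had UMIs in 92.0% of members (median 5182 UMIs a cell) but in 1.40% of proximal tubule cells (median 6972) and 3.44% of leukocytes (median 6286). After each cell was thinned to 1500 UMIs, which left 99 of the 137 members, Tmem213 was found in 88.9% of members, 0.479% of proximal tubule cells and 1.02% of leukocytes. Atp6v0d2, the d2 subunit of the V0 sector, was found in 81.0% of members (67.7% thinned), 0.0740% of proximal tubule cells (0.0420% thinned) and 0.290% of leukocytes. Both shares were far over those of cells that should lack the genes.

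Set against the principal cells, 1589 of 5343 genes with at least 50 UMIs in the pair of groups passed a 2-fold difference (29.7%), 517 higher in members (9.68%) and 1072 lower (20.1%). The median log2 ratio over all genes read was 0.01. These are descriptions, since the rule chose the cells by expression. The principal group at 15 min was a weak reference: it held 209 CPM of Aqp2 against 3621 in control and 2859 at 60 min, and 10 of its 34 barcodes were shared. Over all libraries the principal group also held 30219 CPM of a proximal tubule list. Distal convoluted tubule cells held 9695 CPM of it and thick ascending limb cells 9429.

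Of the 15 intercalated markers outside the rule, 13 were over 2-fold higher in members and 14 were higher in all 3 libraries. The list summed to 12068 CPM in members and 2500 in principal cells. Tmem213 stood at 3559 CPM in control, 3149 at 15 min and 3164 at 60 min, against 627 in principal cells. The 2 not past the line were the ammonia transporters, Rhbg at 581 CPM against 446 and Rhcg at 378 against 544, both of which principal cells also express.

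V-ATPase subunit genes were broadly higher in members, with the widest ratios in specialised forms such as Atp6v0d2. Of 24 subunit genes listed, 18 had enough UMIs, and 13 of these were over 2-fold higher in members and 0 lower, with a summed level of 13741 CPM in members against 3703 in principal cells. The V1 catalytic subunit A (Atp6v1a) stood at 1405 CPM in control, 1109 at 15 min and 1331 at 60 min, against 430 in principal cells. Atp6v1e1, of the peripheral stalk, stood at 2635, 2117 and 2411 CPM in the same order, against 465. The difference was not spread evenly over subunit forms. Atp6v0d2 gave 654 UMIs in members and 1 in principal cells, whereas its ubiquitous form Atp6v0d1 stood at 90.6 CPM in control, 77.6 at 15 min and 78.1 at 60 min, against 87.2 in principal cells.

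The same held for the C subunit. Atp6v1c2 stood at 896 CPM in control, 1024 at 15 min and 678 at 60 min, against 3.36 in principal cells, while Atp6v1c1 stood at 41.8, 38.8 and 78.1 CPM against 43.1. For the B subunit, Atp6v1b1 stood at 467, 341 and 561 CPM against 142, and Atp6v1b2 at 111, 38.8 and 49.7 CPM against 73.3. For the a subunit of V0, Atp6v0a4 stood at 673, 675 and 749 CPM against 175, and Atp6v0a1 had 8 UMIs over the members of all libraries. In each of these 4 pairs the form known from kidney epithelium was the higher of the 2 in members relative to principal cells.

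Atp6v0a4 and Tmem213 overlap. In mm10 (GENCODE vM21), Atp6v0a4 lies on the - strand at chr6:38048483-38124586 and Tmem213 on the + strand at chr6:38109255-38115809, with overlapping exons, and the use of strand in counting is not given in the sources used here. In proximal tubule cells Atp6v0a4 was found in 45.7% and Tmem213 in 1.40%, so the 2 counts did not move together there.

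**Figure D2:**
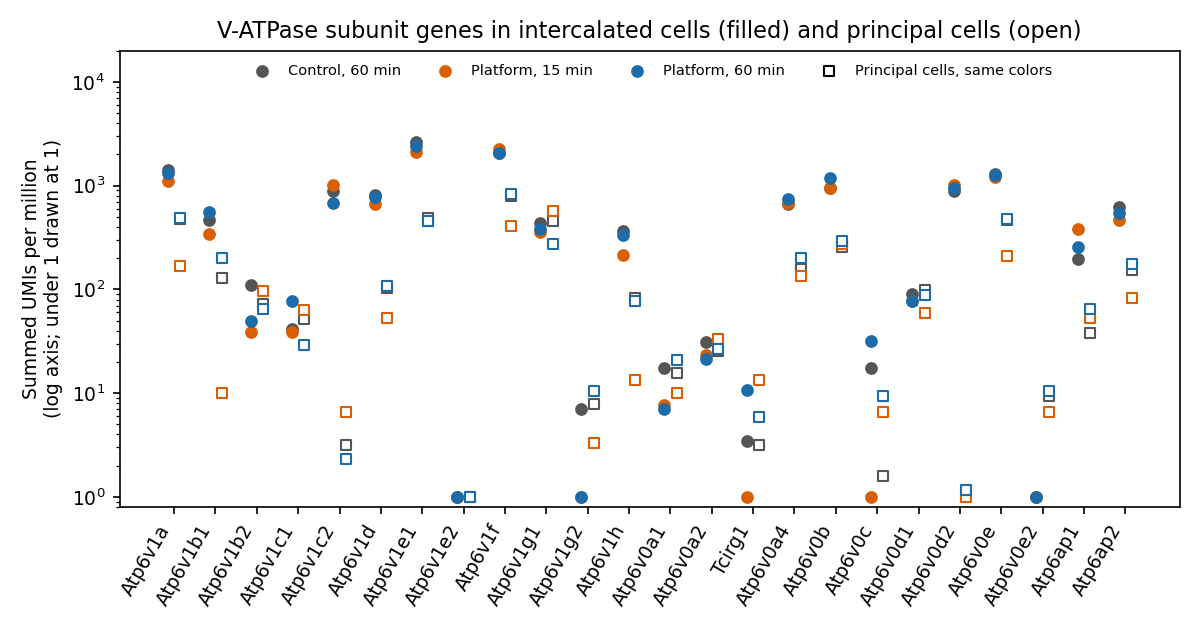
Level of 24 V-ATPase subunit genes (CPM, log axis, values under 1 drawn at 1) in intercalated cells (filled circles) and principal cells (open squares) of each library. Atp6v0d2 and Atp6v1c2 stand high in members and at or near the lower edge in principal cells. The rule gene Atp6v1g3 is not drawn.

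Carbonic anhydrase and transport genes were mixed. Of 17 such genes, 10 were read, 3 over 2-fold higher and 4 lower. Car2, the cytosolic carbonic anhydrase that feeds the pump, stood at 3869 CPM in control, 2885 at 15 min and 3760 at 60 min, against 544 in principal cells. Car12, a membrane form, stood at 366, 465 and 316 CPM against 39.2. Slc4a9, a bicarbonate transporter of the basolateral membrane, stood at 115, 140 and 206 CPM and had no UMI in principal cells. Slc4a4 was lower in members, at 31.4, 62.0 and 7.10 CPM against 263. The colonic proton pump Atp12a had no UMI in members, and the stomach form Atp4a had 15, 4 and 7.

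Of 14 chloride and potassium genes, 9 were read, 3 higher and 2 lower. Fxyd2, a regulator of the sodium pump, stood at 8829 CPM in control, 12029 at 15 min and 7516 at 60 min, against 3418 in principal cells. Bsnd, the chloride channel subunit barttin, stood at 73.2, 109 and 74.6 CPM against 36.4. Kcnma1, the large-conductance potassium channel, had no UMI in members.

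Of 17 transcription factor and Notch genes, 11 were read, 4 higher and 4 lower. Hmx2, a homeobox factor, stood at 446 CPM in control, 357 at 15 min and 220 at 60 min, and gave 236 UMIs in members and 2 in principal cells. Tfcp2l1 stood at 725, 776 and 742 CPM against 413 in principal cells, which also use it. Hes1, a target of Notch signalling, stood at 126, 62.0 and 181 CPM against 286, and the ligand Jag1 at 69.7, 62.0 and 81.7 CPM against 9.51, so the ligand was higher and the target lower in members.

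Of 14 receptor genes, 8 were read, 5 higher and 3 lower. Avpr1a, a vasopressin receptor, stood at 97.6 CPM in control, 155 at 15 min and 85.2 at 60 min and had no UMI in principal cells. Avpr2, the vasopressin receptor of principal cells, had 5 UMIs over all members, against 165 CPM in principal cells. Of the 10 antimicrobial genes 2 were read, 0 higher and 1 lower, and Defb1, an epithelial defensin, stood at 1575 CPM in control, 551 at 15 min and 2180 at 60 min, against 2289.

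Among the 20 genes highest against principal cells by ratio, each higher in 3 of 3 libraries, were the markers already named and several outside the lists. The cell surface protein Emb gave 186 UMIs in members and 0 in principal cells, at least 159-fold higher by a floor of 3 UMIs over the group. Tmem61 gave 178 UMIs against 2, the serpin Serpinb6b 116 against 2, Lmcd1 110 against 3, Cbr2 81 against 1, the synapsin Syn2 80 against 1 and Malrd1 79 against 1. The remainder of the 20 were Atp6v0d2, Atp6v1g3, Slc26a4, Hepacam2, Hmx2, Atp6v1c2, Insrr, Dmrt2, Kit, Slc4a1, Foxi1, Aqp6 and Pdlim3. Among the 10 lowest were Kcne1, Aqp2, Ptgs1, Apela, Cav1, Kcnj1, Scnn1g, Hsd11b2 and Car4, and Scnn1g was lower in only 2 of 3 libraries.

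Markers of other cells were low but not absent. Of 14 principal cell genes 13 were read and 12 were lower in members, with sums of 565 CPM in members and 9690 in principal cells. The water channel gene Aqp3 was nonetheless found in 38.7% of members (17.2% thinned) against 10.6% of proximal tubule cells (2.32% thinned), and Scnn1a, a subunit of the epithelial sodium channel, in 51.1% (26.3% thinned) against 0.657% (0.227% thinned). Both were thus over the share in proximal tubule cells. All 9 distal convoluted and connecting tubule genes read were lower, and of 3 thick ascending limb genes read 1 was higher and 2 lower. Of 14 proximal tubule genes read 13 were lower, with sums of 4589 and 30219 CPM. These calls depend on the high level of this list in the principal group, given above. Endothelial, stromal, podocyte and erythroid lists summed to 20.1, 12.9, 0 and 1.43 CPM in members, and both of the 2 stromal genes read were lower. All 3 leukocyte genes read were higher, with the list summing to 618 CPM against 190, but only 1 gene of the list was higher in all 3 libraries. At least 10 UMIs of the list were held by 1 member in control, 0 at 15 min and 2 at 60 min. The member that held the most is described with the 60 min library.

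Other gene groups differed from principal cells as well. Nuclear-encoded respiratory chain genes summed to 34433 CPM in members and 17250 in principal cells, with 5 of 16 over 2-fold higher and 15 of 16 higher in 3 libraries. The 13 mitochondrially encoded genes summed to 197549 against 251771 CPM, none past the line. Of 5 nuclear or ribosomal-like RNAs 4 were lower, as were 4 of 9 adhesion genes, and 1 of 6 tubule injury genes read was higher and 1 lower. Of 12 stress genes from the study 6 were higher and 0 lower, of 20 immediate early genes read 11 were higher and 1 lower, and of 11 heat shock genes 6 were higher and 0 lower.

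Subtypes were read from Slc26a4 and Slc4a1. A member was placed on the side of the gene with more UMIs: 56 members (40.9%, 32.6 to 49.6) lay on the Slc26a4 side, 36 on the Slc4a1 side, 44 had neither and 1 was a tie, and only 2 cells held both. The sides were 20, 15 and 18 with neither in control, 17, 4 and 9 at 15 min, and 19, 17 and 17 at 60 min. Without shared barcodes there were 20 against 15 in control, 12 against 2 at 15 min and 16 against 17 at 60 min. The median mitochondrial share also differed, at 26.6% on the Slc26a4 side, 3.17% on the Slc4a1 side and 5.80% with neither. The cells with neither were the shallowest, with a median of 2358 UMIs, against 6804 on the Slc26a4 side and 4891 on the Slc4a1 side. After thinning to 1500 UMIs, 26 of 99 members lay on the Slc26a4 side, 20 on the Slc4a1 side and none held both.

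Known type A and type B genes, neither of them in the rule, followed the sides. In 32 of 36 cells on the Slc4a1 side the type A list (Aqp6, Kit, Adgrf5, Dmrt2, Slc26a7) had more UMIs than the type B list (Slc4a9, Insrr, Oxgr1, Slc4a8, Sh2d4b), and in 42 of 56 cells on the Slc26a4 side type B had more. The type A list stood at 2276 CPM on the Slc4a1 side and 75.5 on the Slc26a4 side. The type B list stood at 440 and 607 CPM, a far smaller gap. Against principal cells all 4 type A genes read and all 3 type B genes read were over 2-fold higher.

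Between sides, 151 of 1326 genes read passed 2-fold (11.4%), 43 higher on the Slc26a4 side (3.24%) and 108 higher on the Slc4a1 side (8.14%). With Slc26a4 and Slc4a1, which set the sides, left out of the ranking, Hmx2 had the highest ratio to the Slc26a4 side. It gave 177 UMIs in 40 of 56 cells against 1 UMI in 36 cells. Its level there was 614 CPM in control, 372 at 15 min and 455 at 60 min, and on the Slc4a1 side 0, 0 and 11.9 CPM. Next were Igfbp5, a binding protein of insulin-like growth factors, with 138 UMIs against 4, and Insrr, an alkali-sensing receptor of the insulin receptor family, with 72 against 3. Stap1, Fabp3, Nudt4, Gpx3, Umod and Pgam2 were 4.98- to 7.53-fold higher on that side over all libraries and in the same direction in each of the 3, and the proximal tubule transporter Slc34a1 was higher in 2 of 3.

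On the Slc4a1 side, the water channel Aqp6, which lies in vesicles with the pump, gave 210 UMIs in 34 of 36 cells against 17 in 56 cells, a 26.2-fold difference. It stood at 1275 CPM in control, 860 at 15 min and 1278 at 60 min on that side, and at 70.6, 30.2 and 34.4 CPM on the other. Kit, the stem cell factor receptor, gave 54 UMIs against 0, at least 38.2-fold higher by the floor of 3, with 36.8% of its UMIs over all members in 1 cell. The RNA 2610016A17Rik gave 56 against 0, at least 39.7-fold. Dmrt2, a transcription factor, gave 39 UMIs against 0 but was under the 50 UMIs needed.

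Defb1 was the most abundant gene of this group. It stood at 4526 CPM in control, 3182 at 15 min and 5434 at 60 min on the Slc4a1 side, against 367, 191 and 309 CPM on the Slc26a4 side, and differed 16.3-fold over all libraries. The lower Defb1 of members at 15 min in total (551 CPM) went with 4 of 31 cells on this side, and the part of the subtype make-up in it was not tested. Smim6 gave 79 UMIs against 8 and the adhesion receptor Adgrf5 78 against 10, each higher in 3 of 3 libraries. Cbr2 gave 66 against 2 and Pdlim3 59 against 2, but single cells held 30.9% and 54.8% of their UMIs in all members, and 1 cell held 81.7% of Gm26917. Hspb1 gave 67 UMIs against 8 and was higher in 2 of 3 libraries.

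Pump genes were shared by the sides. Atp6v0d2 stood at 862 CPM on the Slc26a4 side and 1123 on the Slc4a1 side, Car2 at 3958 and 3619, Tmem213 at 3788 and 3566, and Foxi1 at 257 and 285. Oxgr1, the receptor of alpha-ketoglutarate listed for type B cells, was not higher on the Slc26a4 side, at 199 against 297 CPM. The luminal carbonic anhydrase Car15 gave 29 UMIs against 0, Jag1 44 against 3 and the purine receptor P2ry14 0 against 14, all under 50 UMIs in the pair.

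Against control, the 15 min members showed lower immediate early genes. Of 1084 genes read, 107 passed 2-fold (9.87%), 9 higher (0.83%) and 98 lower (9.04%), and the median of all genes read was -0.16 on the log2 scale. With scaling by the median of ratios the split was 21 higher and 79 lower, and with totals that left out mitochondrial genes 23 higher and 72 lower. All 14 immediate early and feedback genes that were read were over 2-fold lower, and all 22 on the list were lower in CPM. This direction held under both of those scalings. Genes were read on their UMIs summed over the pair of libraries, of which the control members gave the larger part, so a low gene could be read more easily when it was lower at 15 min.

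The list summed to 7504 CPM in control, 1078 at 15 min and 7442 at 60 min. The ratio to control was 0.144 at 15 min (0.120 to 0.171), against 0.169 in the other kept cells, and 0.992 at 60 min (0.933 to 1.05), against 2.02 in the other kept cells. The median log2 ratio over the list at 15 min was -2.90 with 0.5 UMIs added to each sum, and -2.07 over 21 genes with 4 genes at 0 set to the floor of 3 UMIs. At 60 min these were 0.20 and 0.16. There, 1 member held 570 of the list's 2096 UMIs, with 277 UMIs of the leukocyte list and 6 rule UMIs. Without members holding at least 10 leukocyte UMIs the median log2 ratio at 60 min was -0.17. The members' ratio at 15 min was thus near that of the other kept cells. At 60 min, with all members counted, it was near 1, while that of the other kept cells was higher. The other kept cells are a mixture that changed between libraries. Proximal tubule cells numbered 2500 of 5886 kept cells in control, 7048 of 8390 at 15 min and 2620 of 9936 at 60 min. Leukocytes numbered 706, 246 and 1460 in the same order. In the study, stress scores differed by cell type and were lowest in proximal tubules. The part of this mixture in the ratios of other kept cells, here and below, was not tested.

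Named genes gave the same picture. Fos, the first responder of the AP-1 family, gave 333 UMIs (1161 CPM) in control, 12 UMIs (93.1 CPM) at 15 min and 1207 CPM at 60 min. Its partner Jun stood at 1227 CPM in control, 124 at 15 min and 1065 at 60 min. Atf3, a stress-induced factor, gave 271 UMIs in control and 5 at 15 min, and Egr1, a zinc finger factor induced within minutes, 93 and 1. Fosb, Junb and Zfp36, a decay factor for short-lived transcripts, were also among the 10 lowest ratios, with Cyr61, Id3 and the heat shock genes Hspa1a and Hspa1b. Hspa1a stood at 983 CPM in control, 62.0 at 15 min and 795 at 60 min. Dnajb1, a heat shock co-chaperone, gave 61 UMIs in control and none at 15 min.

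The signal was unequal between cells. The median member held 1953 CPM of the list in control, 908 at 15 min and 4073 at 60 min, while the 5 highest members held 53.2%, 35.3% and 55.9% of the list's UMIs. More than 5000 CPM was found in 17 of 53 members in control, 7 of 31 at 15 min and 26 of 53 at 60 min. All 7 at 15 min had shared barcodes: among the 20 unshared members the highest was 1833 CPM and the median 767. Among members with at least 1500 UMIs, the counts were 16 of 41, 0 of 18 and 17 of 40. The lower level at 15 min was therefore as marked without the shared barcodes, where the list's ratio to control was 0.0869.

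By side, the list gave no single order. On the Slc4a1 side the median cell held 3994 CPM in control (n = 15), 2524 at 15 min (n = 4) and 10593 at 60 min (n = 17). On the Slc26a4 side it held 889 CPM in control (n = 20), 765 at 15 min (n = 17) and 1000 at 60 min (n = 19), so the median was lower there in each library. Without shared barcodes the 15 min medians were 920 CPM in 2 cells on the Slc4a1 side and 545 in 12 cells on the Slc26a4 side. Summed levels in control did not have this order, at 7944 CPM on the Slc26a4 side, where 1 cell held 30.3% of the list's UMIs, and 7488 on the Slc4a1 side, while at 60 min they were 1220 and 10987. Members with neither gene held medians of 1531, 1282 and 7219 CPM.

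The mitochondrial share moved with the sides in the same libraries. Its median was 25.8% on the Slc26a4 side and 3.02% on the Slc4a1 side in control, 27.1% and 22.9% at 15 min, and 26.5% and 2.65% at 60 min. Over all members of a library, those above 25% held a lower median of the list than the others, 651 against 2865 CPM in control and 1578 against 7255 at 60 min. Within sides this order was not general. In control it was 571 against 4106 CPM on the Slc26a4 side but 10471 (3 cells) against 3436 on the Slc4a1 side. At 60 min it was 1000 against 950 and 10593 against 11498 CPM. Summed levels above 25% were 3412 CPM in control and 7796 at 60 min, against 10454 and 7162 in the others. Among members with at most 25%, the control medians were 4106 CPM in 9 cells on the Slc26a4 side and 3436 in 12 cells on the Slc4a1 side, so the control order of the medians turned, and at 60 min they were 950 in 6 cells and 11498 in 12 cells.

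**Figure D3:**
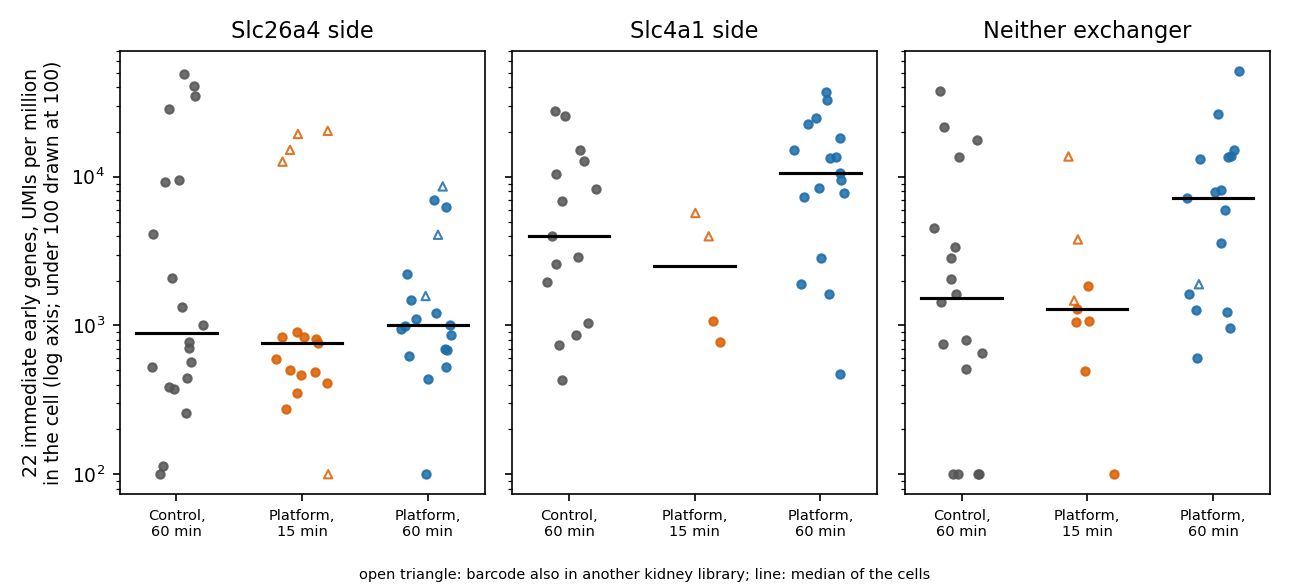
Summed level of 22 immediate early and feedback genes in each member (CPM, log axis, values under 100 drawn at 100), by side and library; the 1 tied cell is not drawn. The median on the Slc26a4 side lies between 765 and 1000 in all 3 libraries, and on the Slc4a1 side it is 10593 at 60 min; the mitochondrial share of the cells differs between the sides.

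Other transcripts moved with the 15 min library. The mitochondrially encoded genes were 1.66-fold of control (1.64 to 1.69) in sum, 1.80-fold in the other kept cells, and 1 of 13 passed 2-fold (mt-Nd3, at 2984 CPM in control, 6515 at 15 min and 2975 at 60 min). Nuclear and ribosomal-like RNAs stood at 0.384 of control (0.360 to 0.410), with 3 of 5 past the line, and the nuclear RNA Malat1 stood at 8776 CPM in control, 1481 at 15 min and 7229 at 60 min. Without shared barcodes Malat1 was 293 CPM at 15 min. In members with at most 25% mitochondrial UMIs the immediate early list summed to 10454 CPM in control and 1796 at 15 min, so its lower level was also seen there. The part of the mitochondrial and nuclear RNA levels in these results was not tested.

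Of the 12 stress genes of the study, 10 were read at 15 min and 7 were lower, and of 9 heat shock genes read 3 were lower and 0 higher. The constitutive chaperones Hspa8, at 2004 CPM in control and 1435 at 15 min, and Hsp90ab1, at 2485 and 1846, did not pass the line. The stress list holds the 12 genes that the study displayed for these libraries, so it is not independent evidence of direction. At 60 min 1 of 11 stress genes and 0 of 11 heat shock genes read were lower, and 1 heat shock gene was higher.

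The 10 highest ratios at 15 min, of which Selenos at 1.99-fold did not pass the line, were led by Klk1, the kallikrein of the connecting tubule. Klk1 stood at 2063 CPM in control, 7344 at 15 min and 2681 at 60 min, a ratio of 3.56 (3.21 to 3.95) at 15 min against 0.122 in the other kept cells, and without shared barcodes 3.43. It was higher on both sides, at 7852 against 2563 CPM on the Slc26a4 side and 6707 against 2551 on the Slc4a1 side, which had 4 cells at 15 min. Calb1, a calcium-binding protein of the distal tubule, stood at 80.2, 217 and 92.3 CPM and was 2.71-fold higher (1.505 to 4.923) against 0.109 in the other kept cells. Kng2, Slc16a7, Uap1l1, Igfbp5 and Fabp3 followed at 2.08- to 2.69-fold, and the secreted phosphoprotein Spp1 at 2.11-fold (1.85 to 2.42), with 1572 CPM in control, 3319 at 15 min and 2042 at 60 min. Without the cell that held most of the gene's UMIs, the ratio was 2.87 for Klk1, 1.40 for Calb1 and 1.76 for Spp1, so only Klk1 of these 3 stayed past the line.

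At 15 min most intercalated identity genes read stayed within 2-fold of control. None of the 14 V-ATPase genes read passed 2-fold, against 9.87% of all genes read, so this count alone says little. The summed V-ATPase ratio to control was 0.924 (0.872 to 0.978). Of 12 intercalated markers outside the rule 2 were lower, against 9.04% of all genes read (Aqp6 and Rhcg, the latter not without its largest cell). Of 5 transport genes 1 was lower, and none of the 4 chloride and potassium, 3 transcription factor and 1 receptor genes read passed it. The type A list stood at 0.377 of control (0.247 to 0.558), with Aqp6 at 394 CPM in control, 140 at 15 min and 437 at 60 min, while the type B list was 1.12 (0.794 to 1.57). Of 4 connecting tubule genes read 2 were higher, of 5 injury genes 1 was higher and 3 lower, and 1 of 2 antimicrobial genes was lower. The keratin gene Krt8 stood at 418, 155 and 121 CPM, so it was over 2-fold lower in both platform libraries, although its ratio at 15 min was 0.502 without its largest cell. No principal cell gene (of 2), respiratory chain gene (of 14) or adhesion gene (of 4) passed the line.

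At 60 min, 62 of 1505 genes read passed 2-fold (4.12%), 22 higher (1.46%) and 40 lower (2.66%). Most of the highest came from few cells. Rgs1, Ccl4, Ccl3, Cxcl2, H2-Eb1, H2-Ab1, Cd74 and H2-Aa are genes of activated leukocytes or of antigen presentation, and 1 member with 11077 UMIs and 6 rule UMIs held 87.7% of their UMIs at 60 min. The leukocyte list stood at 296 CPM in control, 31.0 at 15 min and 1214 at 60 min, with 2 of 2 genes read higher at 60 min and 1 of 1 lower at 15 min. Without members holding at least 10 leukocyte UMIs, 9 genes were higher and 38 lower.

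The lowest genes at 60 min were mostly of proximal tubule metabolism. Among the 10 lowest were Ass1, of arginine synthesis, Akr1c21, the phosphate transporter Slc34a1, Miox, Nat8f1 and Acsm2, with Cited2, Swt1 and Cyr61. The proximal tubule list stood at 6751 CPM in control, 4390 at 15 min and 2478 at 60 min, and 6 of 7 genes read were lower at 60 min and 4 of 7 at 15 min. Of the control UMIs of the list, 1 cell held 34.3% and 12 cells with at least 20 UMIs held 84.9%. In members with fewer than 20 such UMIs the list stood at 1531, 2640 and 1344 CPM, so the order of libraries was not kept. Kap stood at 2785, 698 and 802 CPM.

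Of the 21 listed genes past the line at 60 min, 12 no longer passed it without the single cell that held most of the gene's UMIs, and the same step, chosen after seeing the data, lost 6 of 36 at 15 min and none of the 14 immediate early genes there. At 60 min it removed all 3 receptor genes, the transcription factor, the respiratory chain gene and all 3 immediate early genes that had passed.

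Of the identity genes at 60 min, the V-ATPase list stood near control in sum, and the type A and type B lists stood higher. None of 14 V-ATPase genes read passed 2-fold, against 4.12% of all genes read, so this count alone says little. The summed V-ATPase ratio was 0.979 (0.937 to 1.02). Of 15 intercalated markers 2 were higher (Kit and Oxgr1), against 1.46% of all genes read. However, 1 cell held 21 of the 37 Kit UMIs, without which Kit stood at 58.8 CPM against 59.3. Oxgr1 was 1.95-fold higher without its largest cell. Adgrf5, also past the line, was 1.74-fold higher without its largest cell. The type A list was 1.47 of control (1.21 to 1.80) and the type B list 1.59 (1.24 to 2.05), each with genes past the line (2 of 4 and 1 of 3). Of 5 receptor genes 3 were higher, 1 of 5 transcription factor genes (Hmx2) lower, and 1 thick ascending limb gene, Umod, was higher at 227 CPM against 66.2. No transport, chloride and potassium, principal, connecting tubule, antimicrobial or adhesion gene read passed it, and 1 of 16 respiratory chain genes was lower and 1 of 13 mitochondrial genes was higher. Of 5 injury genes 1 was lower, as was 1 of 5 nuclear RNAs, and of 16 immediate early genes read 1 was higher and 2 lower.

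**Figure D4:**
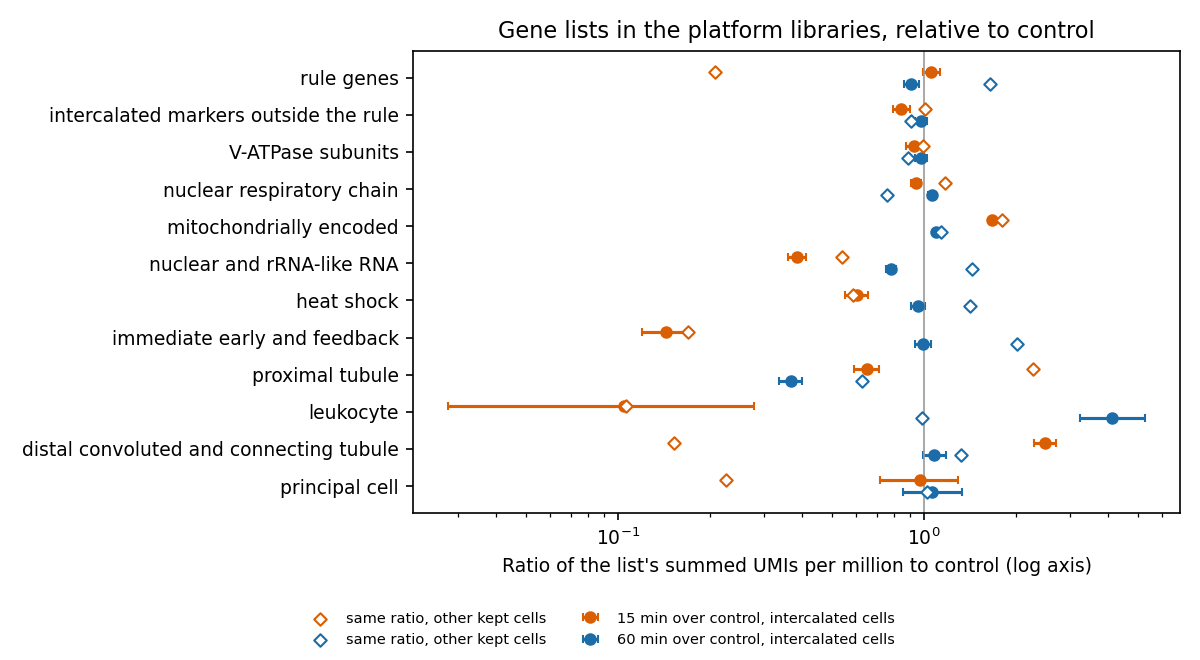
Ratio to control of the summed CPM of 12 gene lists (log axis) in intercalated cells at 15 min and 60 min, with exact 95% intervals, and as open diamonds in the other kept cells. The immediate early list lies at 0.144 at 15 min and at 0.992 at 60 min, and the V-ATPase list near 1 in both.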

How the data were processed

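Single-cell RNA sequencing was analysed for 3 kidney libraries (control, 15 min and 60 min), 1 library per condition. The authors' deposited matrices hold UMI counts per gene and cell, and were made with Cell Ranger 3.1.0 and mm10 according to the submitters' processing notes, with reads per library evened by aggregation, and each cell's library was taken from its barcode suffix. Depth is given as total UMIs of members in the report. Cells with 200 to 3000 genes and at most 50% mitochondrial UMIs were kept. Doublets were not called, and were limited only by the gene limit and the excluding genes. Members and the 27 gene lists were chosen with earlier results of these data known, and the lists and their results are given in the report.

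UMIs were summed over the members of a library and scaled to a total of 1000000 (CPM). Genes with at least 50 UMIs in a pair of groups were read, and a 2-fold line counted as past. Shares carry exact Clopper-Pearson intervals, sums exact Poisson intervals and ratios of sums exact intervals given the total, all at 95% and for counting error only, and ratios of shares carry a log-scale interval. A fold against a sum of 0 used a floor of 3 UMIs, and the median of a list added 0.5 UMIs to each sum. No test was run, because each condition is 1 library and cells are not replicates. Named genes were the listed genes, the 10 highest and 10 lowest ratios of each platform library to control and between sides, and the 20 highest and 10 lowest against principal cells. The ranking between sides left out Slc26a4 and Slc4a1. Shares of cells with a UMI were also given after thinning to 1500 UMIs. Alternatives changed the rule, the limits on cells, the denominator, the scaling, the lowest UMI sum and the fold. The functions for intervals, folds and thinning were tested on simulated data. Promoter windows came from RefSeq, without bases past the start, and positions from GENCODE vM21, where 47 of 47 gene identifiers matched. Python 3.11.15, numpy 2.4.6, scipy 1.17.1, pandas 2.3.3 and matplotlib 3.10.9 were used. A few named genes and their results are not reported here.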

Additional observations from a re-analysis of the deposited data

Results flagged for a closer look

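In the 3 MMTV-PyMT tumor libraries, which no comparison of the report used, 1482 of 17562 kept cells met the same gene rule, far above the limit that a count of 0 allows. Over all 17562 kept tumor cells the rule UMIs were 99.8% Foxi1, with 7123 UMIs, while Atp6v1g3 gave 11 and Slc4a1 and Slc26a4 gave 0. The cells that met the rule numbered 345, 843 and 294 in the 3 libraries. In the kidney members, by contrast, Atp6v1g3 gave 89.5% of rule UMIs.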

How the results depend on the processing

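Of the alternatives to 8 results, 45 were counted as the same, 20 as moved and 5 as reversed. Values counted as the same could still shift. The 15 min share ratio (0.410) became 0.266 without shared barcodes, 0.292 after thinning and 0.296 when 4 other markers chose the cells. The share of members at 15 min over control became 0.738 with at least 1 rule UMI and 1.08 with distal tubule cells as the denominator, and the 60 min share ratio became 0.951 when 4 other markers chose the cells. Counts past the line at 15 min (107) became 414 and 39 with a lowest UMI sum of 20 and 100, 230 and 47 with a fold of 1.5 and 3, and 55 in members with under 20 proximal tubule UMIs. At 60 min (62) they became 284, 21, 202 and 32 in the same order of sums and folds. Against principal cells (1589) they became 2707, 902, 2866 and 834.

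The median log2 ratio of the immediate early list at 15 min (-2.90) became -2.52 in members with under 20 proximal tubule UMIs, -3.80 without shared barcodes and -2.08 in members with at most 25% mitochondrial UMIs, and stayed below 0 in all alternatives run. At 60 min (0.20) its sign turned, to -0.071 in members with under 20 proximal tubule UMIs, -0.17 without members holding at least 10 leukocyte UMIs, -0.33 with at most 25% mitochondrial UMIs and -0.38 after thinning. The share of members on the Slc26a4 side (40.9%) became 27.7% when 2 UMIs of the leading gene were asked for and 26.3% after thinning. The cause of these moves was not tested. Leaving out shared barcodes, leukocyte-rich members or members over 25% mitochondrial UMIs was chosen after seeing the data, except for the mitochondrial limit on the share. No paired analysis was possible because each condition is 1 library, and for the same reason no replicate could be left out. With 31 to 53 members a library, a gene with fewer than 50 UMIs in a pair could not be read.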
